A study of Homo sapiens with 6 samples.

Results

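STAR family proteins bind RNA through a KH domain flanked by family-specific sequences. Here 4 genes of the family were examined: KHDRBS1, which encodes SAM68, its paralog KHDRBS3, and the related genes QKI and SF1. The members were all splicing events listed for these genes in the 5 deposited event tables that had a mean of at least 10 junction reads over the 6 libraries. Of 51 listed events, 46 met this minimum, out of 66395 such events in the whole series. They were 18 of 21 events of KHDRBS1, both events of KHDRBS3, 12 of 13 of QKI and 14 of 15 of SF1. The member with the fewest reads had a mean of 21.7, and the event just under the minimum, a retained intron of QKI, had 8.

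RNA came from NCI-H1975, an established human lung adenocarcinoma (LUAD) cell line. The SAM68 group received PCDNA3.1-SAM68, a plasmid that expresses SAM68, and the control group received the PCDNA3.1 plasmid without it. Each well was given 2 µg of plasmid with lipofectamine, RNA was taken after 48 h, and each group had 3 libraries of bulk cells. The design implies a single comparison, SAM68-overexpressing against control cells, and here it was read for the SAM68 gene itself and for its relatives.

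SAM68 is a nuclear protein that recognizes A/U-rich RNA and regulates alternative splicing (AS). KHDRBS3, also called T-STAR or SLM2, binds similar sequences. QKI binds ACUAA-type elements, controls AS and circular RNA formation, and is made as isoforms that differ in their C-terminal tail. SF1 binds the branch point sequence at an early step of spliceosome assembly, together with the U2AF subunits that recognize the 3ʹ splice site.

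The sequences that the results turn on are printed 5ʹ to 3ʹ in the direction of the gene, from GRCh38. In KHDRBS1, exon 3 is shown because its skipping removes 39 codons from the KH region, with the exon in capitals between 20 intron bases on each side (chr1:32031504-32031660, plus strand). Exon 5 (chr1:32036910-32037043) and exon 8 (chr1:32039515-32039573) are the exons set against each other in the single event called, a call that was lost in 2 alternative tests. The coding part of exon 9 (chr1:32042527-32042624) is shown with its stop codon in capitals, 98 bases in all.
KHDRBS1 exon 3: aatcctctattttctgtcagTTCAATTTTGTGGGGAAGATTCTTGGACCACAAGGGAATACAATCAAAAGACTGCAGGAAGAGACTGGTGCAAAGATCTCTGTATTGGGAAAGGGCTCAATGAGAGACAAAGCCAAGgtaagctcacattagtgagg
KHDRBS1 exon 5: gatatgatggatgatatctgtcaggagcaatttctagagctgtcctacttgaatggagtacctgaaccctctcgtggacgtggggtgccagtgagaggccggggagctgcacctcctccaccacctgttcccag
KHDRBS1 exon 8: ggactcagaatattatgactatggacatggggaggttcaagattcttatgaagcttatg
KHDRBS1 exon 9, coding part: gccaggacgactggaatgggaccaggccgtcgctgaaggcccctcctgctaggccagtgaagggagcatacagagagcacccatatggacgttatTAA

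In QKI, the 3 C-terminal tails that follow exon 6 are shown with the coding bases and stop codon in capitals after 20 intron bases. The QKI-7 tail lies at chr6:163564647-163564710, the QKI-6 tail at chr6:163565926-163565971, and the QKI-5 tail is split between exon 7 (chr6:163566701-163566795) and exon 8 (chr6:163570674-163570710). The start of exon 6 (chr6:163563400-163563463) has 2 competing 3ʹ splice sites, and the 24 bases between them are in capitals.
QKI-7 tail: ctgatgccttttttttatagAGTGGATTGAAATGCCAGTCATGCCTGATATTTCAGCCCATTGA
QKI-6 tail: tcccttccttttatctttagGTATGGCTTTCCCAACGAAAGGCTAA
QKI-5 tail, exon 7: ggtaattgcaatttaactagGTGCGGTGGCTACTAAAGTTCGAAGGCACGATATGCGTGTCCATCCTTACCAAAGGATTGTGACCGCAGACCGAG
QKI-5 tail, exon 8: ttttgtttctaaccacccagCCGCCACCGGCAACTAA
QKI exon 6 start: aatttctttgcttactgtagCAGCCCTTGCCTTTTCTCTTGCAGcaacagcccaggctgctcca

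In SF1, which lies on the minus strand, exon 11 has 3 competing 3ʹ splice sites (chr11:64767227-64767295), and the last 2 intron bases of each are in capitals. Exon 10 has 2 competing 5ʹ splice sites (chr11:64767547-64767590), and the 4 bases between them are in capitals.
SF1 exon 11 start: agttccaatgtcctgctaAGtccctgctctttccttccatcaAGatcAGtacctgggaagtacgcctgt
SF1 exon 10 end: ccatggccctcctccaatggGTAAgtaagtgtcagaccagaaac

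Reads of KHDRBS1 were 3.94-fold higher in SAM68-overexpressing cells, and those of its 3 relatives did not pass the test. The reads are those of the event with the most reads of each gene, scaled so that all genes of a library sum to 1000000 (rpm). In the libraries, KHDRBS1 (ENSG00000121774.17, chr1:32013868-32060850) had 311, 328 and 316 rpm in control cells and 1230, 1260 and 1276 rpm in SAM68 cells. All SAM68 libraries lay far above all control libraries. The means were 318.5 ± 8.91 and 1255 ± 23.1 rpm (SD, n = 3), a log2 fold change of 1.98 (SE 0.05, adjusted p = 1.16e-21 by limma, and p = 0.1 in a two-sided exact permutation test, the smallest that 3 against 3 libraries allow). KHDRBS1 was the only gene called higher of 10147 tested (0.00986% of them), while 4 genes were called lower (0.0394%), with calls made where the adjusted p was below 0.05 and the log2 fold change was 1 or more in size. Junction reads from the plasmid and from the chromosomal gene map to the same exons and cannot be told apart. In bulk RNA, more cells with a transcript and more transcript per cell cannot be told apart either.

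For QKI (ENSG00000112531.16, chr6:163414000-163578592), the control libraries had 114, 114 and 94.7 rpm and the SAM68 libraries 94.5, 88.8 and 113 rpm. The groups overlapped, with a log2 fold change of -0.12 (SE 0.09, adjusted p = 0.638 by limma). SF1 (ENSG00000168066.20, chr11:64764606-64778786) had 168, 169 and 146 rpm in control cells and 165, 158 and 166 rpm in SAM68 cells. Its groups overlapped as well, and its log2 fold change was 0.02 (SE 0.07, adjusted p = 0.935 by limma). KHDRBS3 (ENSG00000131773.13, chr8:135457456-135656722) was read at 6.90, 3.50 and 2.84 rpm in control cells and 4.42, 2.57 and 3.67 rpm in SAM68 cells. That is 14 to 40 reads a library, with a log2 fold change of -0.22 (SE 0.37, adjusted p = 0.860 by limma), so that only a large difference was detectable at this depth.

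**Figure D1:**
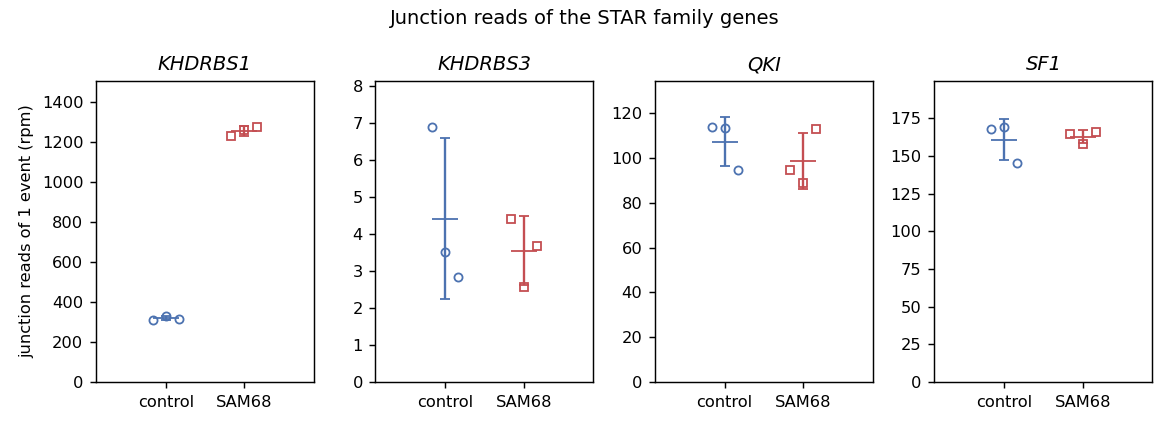
Junction reads in rpm of the event with the most reads of each STAR family gene, with a separate y axis per gene (linear, from 0). Points are libraries (n = 3 per group), and horizontal bars with whiskers are the mean ± SD. The 3 SAM68 libraries of KHDRBS1 lie between 1230 and 1276 rpm, against 311 to 328 rpm in control cells, and the groups of the other genes overlap.

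The rise of KHDRBS1 was seen along the whole coding sequence but was smaller at its last junction. The reads of single junctions were obtained by subtracting events that share them. The exon 1 to exon 2 junction had 87.1, 93.4 and 98.4 rpm in control cells and 364, 372 and 389 rpm in SAM68 cells. The exon 4 to exon 5 junction had 161, 164 and 164 rpm in control cells and 684, 664 and 709 rpm in SAM68 cells. Both were about equally raised, with ratios of the means of 4.04 and 4.20, and none of the groups overlapped. The ratios were 4.55 for the mean of the junctions on either side of exon 3, 3.67 from exon 5 to exon 6, 3.49 from exon 6 to exon 7 and 3.83 from exon 7 to exon 8.

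At the last junction, from exon 8 to exon 9, the control libraries had 48.4, 58.2 and 58.2 rpm and the SAM68 libraries 92.9, 96.2 and 101 rpm. The groups did not overlap here either, but the ratio of the means was only 1.76. The reads of this junction as a percent of those from exon 7 to exon 8 were 96.6, 117 and 160% in control cells and 54.7, 55.6 and 56.4% in SAM68 cells. Control libraries had about as many or more reads at the last junction than at the one before it, and all SAM68 libraries had fewer (means 125 ± 32.6% and 55.6 ± 0.851%, SD, n = 3, p = 0.1 in an exact permutation test). The same reads as a percent of those from exon 4 to exon 5 were 33.7 ± 3.07% in control cells and 14.1 ± 0.464% in SAM68 cells (SD, n = 3). By contrast, exon 7 to exon 8 against exon 4 to exon 5 gave 27.9 ± 5.01% and 25.4 ± 0.603%, with overlapping groups (exact permutation p = 0.4), and exon 1 to exon 2 against exon 4 to exon 5 gave 56.9 ± 2.88% and 54.7 ± 1.43%, with overlapping groups (exact permutation p = 0.3). The last junction lies 98 bases before the end of the stop codon, within the coding sequence printed above. A reverse primer that the paper lists for its tagged SAM68 plasmid matches the last coding bases before this stop codon. Whether the same insert was used here is not stated. Whether a difference between plasmid and chromosomal transcripts at this end bears on these reads was not tested.

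**Figure D2:**
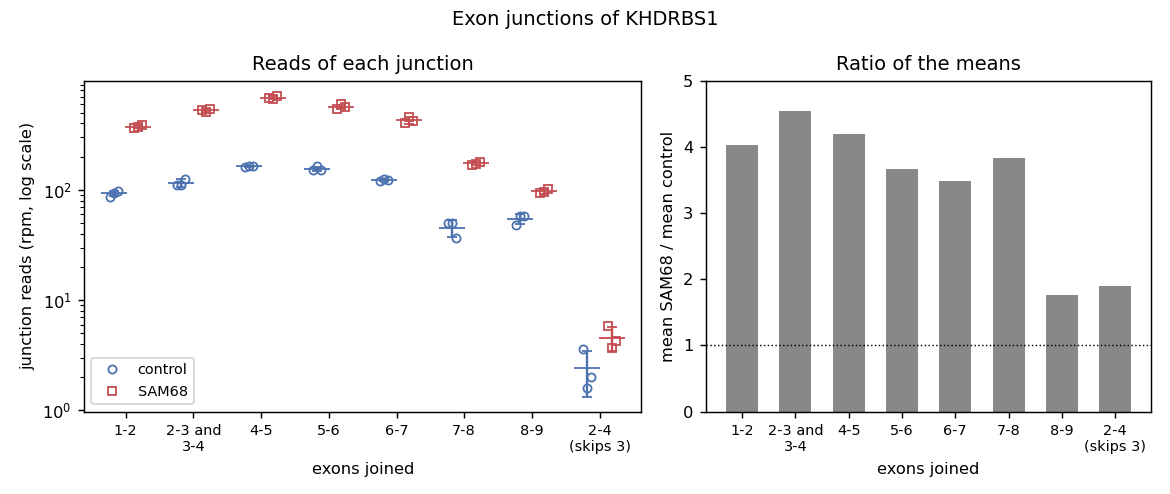
Reads of the exon junctions of KHDRBS1. The left panel gives rpm on a log axis, with points for libraries (n = 3 per group) and the mean ± SD, and the right panel gives the mean of the SAM68 group over the mean of the control group, with a dotted line at 1. The ratio is between 3.49 and 4.55 at the junctions from exon 1 to exon 8, and 1.76 from exon 8 to exon 9. The junction that skips exon 3 is at the far right, with a ratio of 1.90.

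The reads of the inclusion and the skipping form of each event were also tested one by one. Of 23 forms of KHDRBS1 tested, 18 were called higher, with log2 fold changes of 1.80 to 2.19, and none lower, against 0.0297% called higher and 0.0142% called lower among 77509 forms of all genes. These 18 forms share a few junctions and are not independent. The 3 forms that count the exon 8 to exon 9 junction passed the adjusted p with a log2 fold change of 0.81 (SE 0.10, adjusted p = 6.75e-05 for the most significant by limma) but stayed under the limit of 1 on the fold change. The other 2 forms did not pass. They were that of the junction from exon 2 to exon 4, with a log2 fold change of 0.84, and a form that adds to it the few reads from exon 4 to exon 6, with 0.82. None of the 2 forms of KHDRBS3, 16 of QKI and 21 of SF1 passed the adjusted p, and their log2 fold changes were between -0.65 and 0.26.

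AS was measured as the percent spliced in (PSI), the share of the inclusion form after division by the effective length of each form. Calls needed an adjusted p below 0.05 and a ∆PSI (SAM68 minus control) of 10 points or more in size. Of the 46 member events 1 was called, a mutually exclusive exon (MXE) event of KHDRBS1, against 18 of all 66395 events (0.0271%). It was also the only member past the adjusted p alone, against 0.0979% of all events. In SAM68 cells, the PSI of every KHDRBS1 event mixes reads of the plasmid and of the chromosomal gene, which cannot be told apart. A ∆PSI of KHDRBS1 therefore cannot be read as a change in splicing of the chromosomal gene. The event called sets exon 5 against exon 8, both of which are regular coding exons of the same transcript, so that a transcript can hold both. Its forms count the junctions of exon 5 with exons 4 and 9, and those of exon 8 with exons 4 and 9. The junctions from exon 5 to exon 9 and from exon 4 to exon 8 had at most 2 reads in any library, so that nearly all reads of the event were those from exon 4 to exon 5 and from exon 8 to exon 9.

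The PSI of exon 5 in this event was 70.4, 67.1 and 67.2% in control cells and 84.2, 83.3 and 83.5% in SAM68 cells. All SAM68 libraries were higher. The means were 68.2 ± 1.91% and 83.7 ± 0.451% (SD, n = 3), a ∆PSI of 15.4 points (adjusted p = 3.78e-09 by the quasi-binomial test with limma's moderation, exact permutation p = 0.1). The call was lost when each event kept its own dispersion (adjusted p = 0.286) and when limma was applied to logit-transformed PSI (adjusted p = 0.256). Both forms of the event had more reads in SAM68 cells, by log2 fold changes of 2.07 for exon 5 and 0.81 for exon 8, and the PSI compares these rises. A similar event that sets exon 5 against exon 7 had 70.8, 71.5 and 77.4% in control cells and 75.3, 74.4 and 75.0% in SAM68 cells, with overlapping groups and a ∆PSI of 1.65 points (adjusted p = 0.754), which was 0.440 points without control library 1 and 3.73 points without control library 3.

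Exon 3 of KHDRBS1 encodes part of the KH domain, and skipping it gives the form known as Sam68ΔKH. Its PSI was 97.0, 98.6 and 98.5% in control cells and 99.0, 99.3 and 99.3% in SAM68 cells. The groups did not overlap, but a ∆PSI of 1.13 points was not significant (adjusted p = 0.369, exact permutation p = 0.1), and it was 0.602 points without control library 1 and 0.608 points without effective lengths. Reads joining exon 2 to exon 4 numbered 21, 10 and 12 in control cells and 37, 20 and 23 in SAM68 cells, that is 2.41 ± 1.07 and 4.58 ± 1.13 rpm (SD, n = 3). Its reads had a log2 fold change of 0.84 (SE 0.38, adjusted p = 0.404 by limma), while those that include exon 3 had one of 2.19 (SE 0.06, adjusted p = 1.92e-17 by limma).

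The other skipped exon (SE) events of KHDRBS1 were close to full inclusion. The 12 tested SE events cover the 7 exons from exon 2 to exon 8, and outside exon 3 the PSI was 98.96% or more in every library. Exon 5, the event with the most reads of the gene, had 99.8 ± 0.279% in control cells and 99.9 ± 0.109% in SAM68 cells (SD, n = 3, adjusted p = 0.566). The event that sets exon 2 against exon 4 had 36.8 ± 1.15% and 35.9 ± 0.610% (SD, n = 3), a ∆PSI of -0.93 points (adjusted p = 0.835). A longer exon 6 from another 5ʹ splice site made up 0.311% or less in every library.

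KHDRBS3 was too thinly read for a small change to be seen. Its events are exon 7 and exon 8, with 12 to 49 reads a library. The PSI of exon 7 was 100% except in 1 control library with 87.1%, where 1 of 12 reads skipped it, and that of exon 8 was 100% except in 1 SAM68 library with 63.4%, where 4 of 14 reads skipped it. The ∆PSI values of 4.30 and -12.2 points therefore rest on 1 library each, are 0 without it, and were not significant (adjusted p = 0.582 and 0.566).

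In QKI, no event passed the test and no event separated the groups. Its exon 2, the most read event, had a PSI of 85.4, 84.0 and 83.2% in control cells and 87.5, 88.3 and 82.8% in SAM68 cells. The highest values were in the SAM68 group, and so was the lowest. The ∆PSI was 1.99 points (adjusted p = 0.570). The upstream 3ʹ splice site of exon 6, which adds the 24 bases in capitals above, had a PSI of 90.9, 91.8 and 91.0% in control cells and 93.6, 91.2 and 94.5% in SAM68 cells. The groups overlapped, with a ∆PSI of 1.89 points (adjusted p = 0.684). Exon 4 against exon 5 had 92.3 ± 1.46% and 93.7 ± 0.665% (SD, n = 3), with a ∆PSI of 1.33 points (adjusted p = 0.849). Exons 3, 4 and 7 had a PSI of 96.9 to 100% in every library, with ∆PSI values of -0.16, 0.34 and 0.26 points, none of them significant.

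The tails of QKI, which set where its protein resides in the cell, were singled out after their values were seen, because they define the isoforms. The coding sequences of QKI-5, QKI-6 and QKI-7 hold 341, 319 and 325 codons. The junction from exon 6 to the QKI-5 tail had 234, 275 and 216 reads in control cells and 209, 251 and 237 in SAM68 cells. That to the QKI-6 tail had 15, 29 and 26 reads in control cells and 15, 17 and 27 in SAM68 cells, and that to the QKI-7 tail had 4, 8 and 16 and then 4, 6 and 9. QKI-5 was the main tail in all 6 libraries, with a share of 88.1 ± 4.38% of these junction reads in control cells and 90.0 ± 2.78% in SAM68 cells (SD, n = 3, exact permutation p = 0.7). QKI-6 had 8.43 ± 2.20% and 7.56 ± 2.03% (exact permutation p = 0.9), and QKI-7 had 3.45 ± 2.43% and 2.41 ± 0.795% (exact permutation p = 0.7).

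None of the 14 events of SF1 passed the test. In a pair near its 3ʹ end that sets exon 12 against the first 205 bases of exon 13, the PSI of exon 12 was 95.1 ± 1.90% in control cells and 95.6 ± 0.959% in SAM68 cells (SD, n = 3, adjusted p = 0.926). For the 3ʹ splice sites of exon 11, the site 29 bases upstream had a PSI against the most downstream site of 7.97, 7.20 and 15.3% in control cells and 30.5, 9.33 and 15.2% in SAM68 cells. One SAM68 library was far above the other 5, which overlapped. The ∆PSI was 8.17 points (adjusted p = 0.679), and 2.08 points without that library. The site between these, 5 bases upstream of the last, carried most reads, with a PSI of 87.6 ± 1.14% and 89.4 ± 3.99% against the last site (SD, n = 3, adjusted p = 0.687).

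The 5ʹ splice site of exon 10 that adds the 4 capital bases had a PSI of 10.7, 6.92 and 9.82% in control cells and 8.99, 15.2 and 8.86% in SAM68 cells, with overlapping groups (∆PSI 1.90 points, adjusted p = 0.708). Exon 3 of SF1, the event with the most reads of the gene, had 96.6, 94.5 and 92.9% in control cells and 95.8, 96.7 and 97.9% in SAM68 cells. The lowest SAM68 library lay below the highest control library, and the ∆PSI was 2.15 points (adjusted p = 0.557). Exon 12 had a PSI of 99.6% or more in every library when its skipping was read as a join of exon 11 to the start of exon 13. In an event singled out after its values were seen, against a join of exon 11 to the later acceptor within exon 13, which had 3 to 11 reads a library, its PSI was 96.4, 96.0 and 98.6% in control cells and 97.3, 98.8 and 97.8% in SAM68 cells, with overlapping groups (adjusted p = 0.566). A rare exon in intron 3 had 0.371 ± 0.444% in control cells and 0.559 ± 0.483% in SAM68 cells (SD, n = 3, adjusted p = 0.627).

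Across the 4 genes, 5 of 46 events had groups that did not overlap, 3 of them in KHDRBS1 and 2 in SF1, against 6.12% of all events with a PSI in every library. The KHDRBS1 events were the exon 5 and 8 pair, exon 3, and a pair that sets exon 4 against exon 5, in which a PSI of 1.70 ± 0.567% in control cells and 0.888 ± 0.217% in SAM68 cells (SD, n = 3, adjusted p = 0.474) counts the junctions from exon 2 to exon 4 and from exon 4 to exon 6. In SF1, an exon in intron 1 had 7.91, 7.38 and 8.62% in control cells and 5.70, 6.68 and 7.31% in SAM68 cells. All SAM68 libraries were lower, by 1.41 points on average (∆PSI -1.41, adjusted p = 0.566, exact permutation p = 0.1). The other, chosen after its values were seen, was an intron within exon 13 of SF1 with a PSI of 1.54, 1.37 and 3.03% in control cells and 8.33, 6.12 and 7.69% in SAM68 cells. All SAM68 libraries were higher, but the values rest on 1 inclusion read in each control library and 6, 3 and 3 in the SAM68 libraries, and the ∆PSI was 5.40 points (adjusted p = 0.536).

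**Figure D3:**
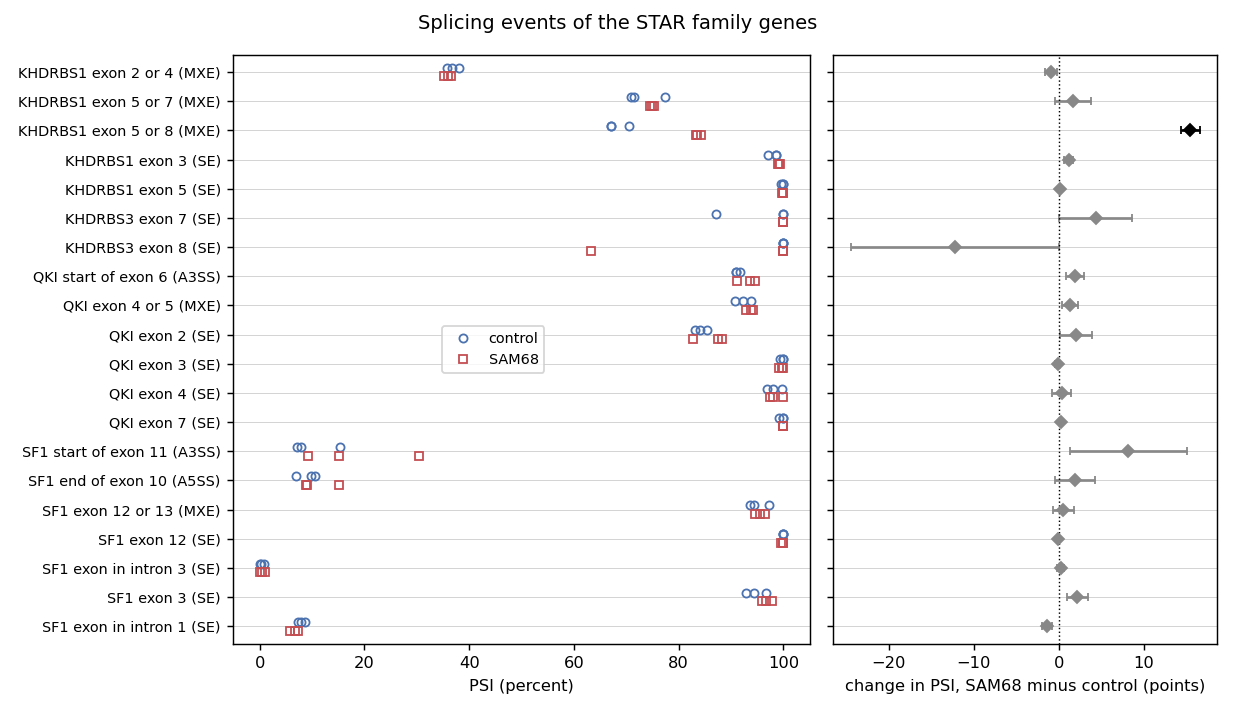
PSI in percent of 20 STAR family events, those with the most reads or the largest change in each gene, in each library (left, n = 3 per group), and ∆PSI in points with its standard error from the SDs of both groups (right, SAM68 minus control). The black diamond is the event called, KHDRBS1 exon 5 or 8 with a ∆PSI of 15.4 points, and grey diamonds are events not called. SE, skipped exon, MXE, mutually exclusive exons, A3SS and A5SS, alternative 3ʹ and 5ʹ splice sites.

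The median absolute ∆PSI was 0.212 points for KHDRBS1, 8.26 for KHDRBS3, 0.832 for QKI and 1.20 for SF1, beside 1.24 points over all events tested. The KHDRBS3 value comes from only 2 events, each of which rests on a single library. An unadjusted p under 0.05 was found for 5 of 18 events in KHDRBS1, 2 of 14 in SF1 and none in QKI and KHDRBS3, that is 7 of 46, against 8.46% of all events tested.

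In the 100 intron bases before and after the skipped exons, short words like those bound by these proteins were counted on the strand of the RNA. ACTAA, the core of the QKI element, stood before 2 and after 5 of the 28 exons of member SE events, while 7.37% and 6.44% of 47450 tested SE events had it there. TAAA, which is found in A/U-rich elements of the SAM68 type, stood before 13 and after 16 of the 28, while 41.1% and 42.1% of all tested SE events had it. Several of the 28 events share an exon, so these are descriptions of few sequences. Exon 3 of KHDRBS1 had 1 TAAA before it and none after it, and no ACTAA on either side.

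Other genes of the splicing machinery and of SAM68 signalling were read from lists. Of 12 partners of SF1 at the branch point and 3ʹ splice site, 11 were tested and none was called by its reads, with a median log2 fold change of 0.06 beside -0.03 over all genes. Of their 71 tested events, 2 were called, both of U2AF1, in which PSI ran from 0 to 100% within the SAM68 group and from 7.66 to 97.6% within the control group. U2AF1 has a near-identical copy in the genome and its reads are uncertain. Of 10 partners and modifiers of SAM68, 9 were tested and none called. The highest log2 fold change was that of MAPK3, a kinase that phosphorylates SAM68, with 54.5 and 73.9 rpm on average and a value of 0.44 that did not pass (adjusted p = 0.058 by limma), and HNRNPA1, a partner of SAM68 in AS, had one of -0.01 (adjusted p = 0.932 by limma). None of their 55 events was called. Among known AS targets, none of 5 genes and 73 events of the SAM68 list and none of 2 genes and 24 events of the QKI list were called. Over all features tested, 0.0271% of events were called, and 0.00986% of genes were called higher and 0.0394% lower. Lists this short would seldom hold a call.

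The 5 genes whose reads followed KHDRBS1 most closely over the 6 libraries were DOCK2, SARM1, OSCP1, MYPN and AC010326.2. Likeness was the mean absolute difference in log2 of rpm relative to each gene's own control mean, and it was 0.17 for DOCK2 and 0.44 to 0.55 for the others. DOCK2 had only 2 to 3 reads in control libraries and 14 to 22 in SAM68 libraries, and none of the 5 passed the test (adjusted p = 0.091 for DOCK2 by limma).

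The libraries held 16951876 to 19737729 junction reads over the skipped exon events and 5449695 to 6337736 reads over the events that stand for the genes. Of 8 epithelial markers, KRT7, KRT8 and KRT18 were tested and none was called, with log2 fold changes of -0.89 to 0.12. Mean levels in control and SAM68 cells were 482 and 525 rpm for KRT18, 336 and 237 rpm for KRT8, in which 1 control library had 519.6 rpm, and 3.67 and 1.77 rpm for KRT7. The groups did not overlap for KRT18, which was higher in SAM68 cells, and for KRT7, which was lower and had only 8 to 26 reads a library. The share of all genes with such groups was not counted. Of 4 markers of other cells only DCN was listed, at 0.533 and 0.577 rpm, too few reads for the test.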

How the data were processed

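The authors sequenced paired-end RNA libraries of NCI-H1975 cells. Per the submitters' processing notes, CASAVA 1.4, fastp 0.20.0 and HISAT2 2.1.0 were used with GRCh38, and per the paper rMATS listed the events (version not given in the sources used here). The deposited tables hold raw junction read counts of both forms, inclusion levels as fractions and effective lengths, with 3 libraries per cell and no replicate numbers. They also hold p-values, FDR values and a difference of levels from the authors' test, which were not used. The list given first was taken as control, as in the paper's plots of the same values, and KHDRBS1 was higher in the other list. The deposited inclusion levels served to check how the lists of counts were read, and 0 columns of values per library were left unused.

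Of 78336 events, 113 whose lists could not be read without doubt were left out, none of them of the members. PSI was computed per library from counts and effective lengths and averaged over libraries. Events entered a quasi-binomial F test whose dispersion was moderated within each event type (limma 3.58.1 under R 4.3.3). Junction reads of genes (the event with the most reads) and of forms were tested with limma (eBayes with trend) on log2(rpm + 0.5), so folds of low genes are understated. A count model had been planned for these but was not run, and limma was used instead. P-values were adjusted by Benjamini-Hochberg, within event type or over all genes or forms. On simulated counts, 200 of 200 changed events and 195 of 200 changed genes were recovered, with 7 and 1 false calls. Recovery at the read depth and PSI of the member events was not tested separately, nor was recovery of small changes. No pair of libraries agreed within counting noise (chi-square per degree of freedom 3.15 to 6.42). The labels do not say whether the libraries share a culture. The paper calls them biological replicates. Strand use in counting is not given.

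The members and all lists were chosen with earlier results of these data known. Events named were those past the adjusted p, in each gene the 5 with the most reads, and in each gene the 3 that changed most in PSI among those with 50 or more reads on average, and any other event is said to have been singled out or is part of a splice site set or of a count. Exon numbers and positions are from the canonical transcripts of GENCODE 44, and sequences from hg38. Alternatives to the filters, tests, scaling and pseudocount were run.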

Additional observations from a re-analysis of the deposited data

How the results depend on the processing

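Of the member events, 1 was called under all alternatives (of 46 tested, or of 51 without a filter on low values) but these: 0 were called with each event's own dispersion and 0 when limma was applied to logit-transformed PSI, while leaving out single libraries gave 1 to 1. Its ∆PSI of 15.4 points ranged from 14.9 to 16.5 with libraries left out. Among member genes, 1 was called and among member forms 18 under every alternative run, and 1 to 1 and 18 to 18 with libraries left out. KHDRBS1 kept a log2 fold change of 1.96 to 2.00 with libraries left out. Small differences that were not called changed sign when a library was left out: exon 5 of KHDRBS1 (-0.0767 to 0.165 points), exon 3 of QKI (-0.373 to 0.0552), exon 4 of QKI (-0.40 to 1.09), the end of SF1 exon 10 (-0.21 to 2.99), SF1 exon 12 against 13 (-0.17 to 1.61), the SF1 exon in intron 3 (-0.0693 to 0.434), and the log2 fold changes of KHDRBS3 (-0.45 to 0.12) and SF1 (-0.0497 to 0.0590). Others kept their sign but moved by over 1.5 times: KHDRBS1 exon 2 against 4 (-1.49 to -0.341 points) and exon 5 against 7 (0.440 to 3.73), exon 3 of KHDRBS1 (0.602 to 1.43), QKI exon 2 (0.920 to 3.70), exon 4 against 5 (0.589 to 2.04), the start of exon 6 (1.19 to 2.83), SF1 exon 3 (1.27 to 3.12), the start of SF1 exon 11 (2.08 to 12.7), and the log2 fold change of QKI (-0.22 to -0.05). Exon 7 of KHDRBS3 (0 to 6.46), exon 8 of KHDRBS3 (-18.3 to 0), QKI exon 7 (0 to 0.393) and SF1 exon 12 (-0.184 to 0) each reached 0 without 1 library. Without effective lengths, QKI exon 2 moved to 1.14 points, SF1 exon 3 to 1.41, the SF1 exon in intron 1 to -2.45 and exon 7 of KHDRBS3 to 2.78. A likelihood ratio test on counts summed per group ignores the spread between libraries. It also gave adjusted p = 0.00233 for exon 3 of KHDRBS1 and 0.0402 for SF1 exon 3, both short of the limit of 10 points. The causes were not tested.

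Over all genes the counts moved more. The 18 events called became 2 with own dispersions, 3 with limma on the logit, 1354 with a likelihood ratio test of counts summed per group, 30 without a filter on low values, 41 with a limit of 5 points, 127 with 1 shared dispersion per type and 7 to 29 with libraries left out. The 5 genes called became 3 when all events of a gene were summed, 3 with median-of-ratios size factors and 1 to 14 with libraries left out. The 34 forms called were 31 to 51 with libraries left out. The shared dispersion, the size factors, voom weights and the pseudocount of 1 rpm were chosen after seeing the data. The planned count tests were not run, and the median-of-ratios size factors were used only with limma. No paired analysis was possible because the lists carry no replicate numbers. With 3 libraries a group, the exact test cannot go below 0.1, and events of KHDRBS3 rest on few reads.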
